A study of Mus musculus with 6 samples.

Results

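Akr1b8, the transcription factor gene Nfe2l2 and 8 genes that its product NRF2 is known to induce were followed in mouse gingiva with and without plasminogen. They were selected on their link to NRF2 and on earlier Plg KO against Plg WT values of these same libraries. Among those values Akr1b8 stood out. Their differences between genotypes are therefore described, and the test results given for them serve as description only. All 10 were found among the 48709 genes of the count table. All 10 also passed the filter on low counts, which left 17757 genes. The gingiva, the oral mucosa around the teeth, came from 12-week-old C57BL/6 mice of 2 genotypes: Plg KO, which lack plasminogen, and their wild-type littermates, Plg WT. Each group had 3 RNA sequencing libraries. No treatment is labelled, and the labels give neither the Plg allele nor how many animals went into a library. A p-value here therefore reflects how far these libraries vary, and part of that variation may be technical. Transcripts of the Y-linked gene Ddx3y were found in Plg KO 1 (1838 counts) and Plg WT 3 (1475 counts), with at most 2 counts elsewhere. The libraries of a group thus did not all come from the same animal. Plasminogen is the precursor of plasmin, the protease that dissolves fibrin. The gene had 2 counts over the Plg KO libraries and 2 over the Plg WT libraries, so in this tissue its transcript does not check the genotype labels.

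NRF2 is held at a low level in unstressed cells because KEAP1, a sensor of oxidants and electrophiles, marks it for degradation. When KEAP1 is modified, NRF2 accumulates, pairs with small MAF proteins and binds antioxidant response elements (AREs) in its target genes. Those targets make glutathione, keep thioredoxin and peroxiredoxin reduced, and detoxify quinones, aldehydes and haem. In stratified epithelium such as skin and the lining of the mouth, NRF2 is known to protect keratinocytes from oxidants.

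The promoters of the genes whose Plg KO libraries all lay above the Plg WT libraries, Akr1b8, Slc7a11 and Txnrd1, are shown with that of Srxn1, a target whose groups overlapped, because ARE letters were looked for in them. The sequences are from RefSeq on GRCm38.p6 and cover the 250 bases before the annotated start, 5′ to 3′ on the gene's strand. RefSeq lists 3 starts for Txnrd1, and the second is shown because a match lies there; the other starts have none. Capitals mark letters of the ARE core (TGACNNNGC), of the same core with G in place of its C (TGAGNNNGC), and of the element bound by the stress factor ATF4 (TGATGNAA), each on either strand.
Akr1b8, chr6:34353896-34354145, strand +: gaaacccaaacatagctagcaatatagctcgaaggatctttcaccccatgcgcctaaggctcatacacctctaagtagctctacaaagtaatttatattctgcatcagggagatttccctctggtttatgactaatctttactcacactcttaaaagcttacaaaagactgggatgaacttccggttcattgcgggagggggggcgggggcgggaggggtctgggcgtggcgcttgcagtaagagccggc
Slc7a11, chr3:50443614-50443863, strand -: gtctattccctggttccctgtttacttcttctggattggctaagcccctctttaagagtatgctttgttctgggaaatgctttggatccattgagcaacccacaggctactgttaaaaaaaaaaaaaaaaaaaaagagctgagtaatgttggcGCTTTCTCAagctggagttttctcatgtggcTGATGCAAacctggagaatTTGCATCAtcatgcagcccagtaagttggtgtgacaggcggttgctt
Txnrd1, chr10:82858956-82859205, strand +: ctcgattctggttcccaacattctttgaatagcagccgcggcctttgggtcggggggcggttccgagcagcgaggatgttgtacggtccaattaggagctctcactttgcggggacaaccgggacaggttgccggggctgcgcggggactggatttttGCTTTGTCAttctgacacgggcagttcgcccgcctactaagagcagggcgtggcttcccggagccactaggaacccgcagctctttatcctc
Srxn1, chr2:152105274-152105523, strand +: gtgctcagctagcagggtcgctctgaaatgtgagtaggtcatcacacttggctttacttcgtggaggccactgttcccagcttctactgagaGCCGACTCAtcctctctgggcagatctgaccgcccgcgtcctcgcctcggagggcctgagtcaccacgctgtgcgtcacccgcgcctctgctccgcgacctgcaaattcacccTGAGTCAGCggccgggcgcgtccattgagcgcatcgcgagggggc

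Positions are those of the first base of a match, counted from the start. In the full windows, which run 50 bases past it and so beyond the letters printed, the core TGACNNNGC was found in Nfe2l2 at -240, Gclm at -134, the second Txnrd1 start at -92 and Srxn1 at 29. It occurs in 12.4% of the 32851 promoter windows of this length. The TGAGNNNGC form, present in 17.6% of windows, was found in Slc7a11 at -97 and in Srxn1 at -158 and -45. The letters at -45 also hold those of an AP-1 site (TGAGTCA). The ATF4 letters, present in 3.97% of windows, stood in Slc7a11 at -66 and, on the other strand, at -47. No match to these letters lies in the windows of Akr1b8, Nqo1 or Gpx2, which says only that these letters are not there. Promoters of 8 of the 10 genes were matched, and Gclc and Hmox1 were not. A match is a string of letters, and binding was not measured.

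Akr1b8 encodes an aldo-keto reductase that reduces reactive aldehydes. Levels are given as CPM, counts scaled to library size, after TMM normalization, which corrects for differences in library composition. Akr1b8 (ENSMUSG00000029762, GRCm38 chromosome 6, 34354119 to 34368463) had 52.7, 58.8 and 58.7 CPM in Plg KO 1, 2 and 3, against 30.8, 28.5 and 30.4 CPM in Plg WT 1, 2 and 3. Every Plg KO library lay well above every Plg WT library, with a narrow spread in both groups. The means were 56.7 ± 3.52 CPM in Plg KO and 29.9 ± 1.23 CPM in Plg WT (SD, n = 3 each), resting on 5560 and 2878 counts. The fold difference was 1.89, corresponding to a log2 difference of 0.92 ± 0.09 (SE), and 4.98% of all tested genes differed by more.

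Slc7a11 (ENSMUSG00000027737, chromosome 3, 49892526 to 50443614) encodes the cystine transporter that brings in the building block for glutathione, and it is also a known target of ATF4. It had 28.8, 41.2 and 28.6 CPM in Plg KO 1, 2 and 3, against 14.7, 16.4 and 15.2 CPM in Plg WT 1, 2 and 3. Again the groups did not overlap, and Plg KO 2 stood above the other Plg KO libraries. The means were 32.9 ± 7.22 CPM in Plg KO and 15.4 ± 0.880 CPM in Plg WT (SD, n = 3 each), a 2.13-fold difference and a log2 difference of 1.09 ± 0.16 (SE). Neutrophil markers were also higher in every Plg KO library in sum and highest in Plg KO 2. Most of that sum was S100a8 and S100a9, so its order is mainly theirs. They had 229.3 and 237.1 CPM in Plg KO 2, against 28.9 and 34.2 CPM in Plg WT 3. The summed level of 8 neutrophil genes was 151.6 to 509.5 CPM in Plg KO and 37.9 to 77.1 CPM in Plg WT, with none of the 8 at 0 in all libraries and 6 of the 7 tested ones higher in every Plg KO library, as 7.51% of all tested genes were. Of these 7, edgeR and limma-voom called 0 (6 higher at an unadjusted p under 0.05 in edgeR, as were 4.97% of all tested genes). DESeq2 called 5 higher, as it did 1.61% of all genes. Fat markers were lower in every Plg KO library in sum: 6 genes summed to 18.2 to 22.5 CPM in Plg KO and 39.4 to 81.9 CPM in Plg WT, with none at 0 in all libraries. Of the 5 tested, edgeR called 1 lower, Cidec (adjusted p = 0.0363), DESeq2 called 3 lower and limma-voom 0. Over all genes, edgeR called 0.0451% lower, DESeq2 0.75% and limma-voom 0.0507%. The 6 fibroblast genes summed to 1387 to 2552 CPM in Plg KO and 2175 to 3678 CPM in Plg WT, groups that overlap. All 6 had a negative log2 difference (median -0.47), as did 9024 of all 17757 tested genes. Of the 6, edgeR, DESeq2 and limma-voom called 0. Before adjustment, 3 were lower in edgeR's test (p under 0.05), as were 4.27% of all tested genes. The part of these cell types in the Slc7a11 and Akr1b8 differences was not tested. In bulk tissue, more cells of a type and more RNA per cell cannot be told apart.

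**Figure D1:**
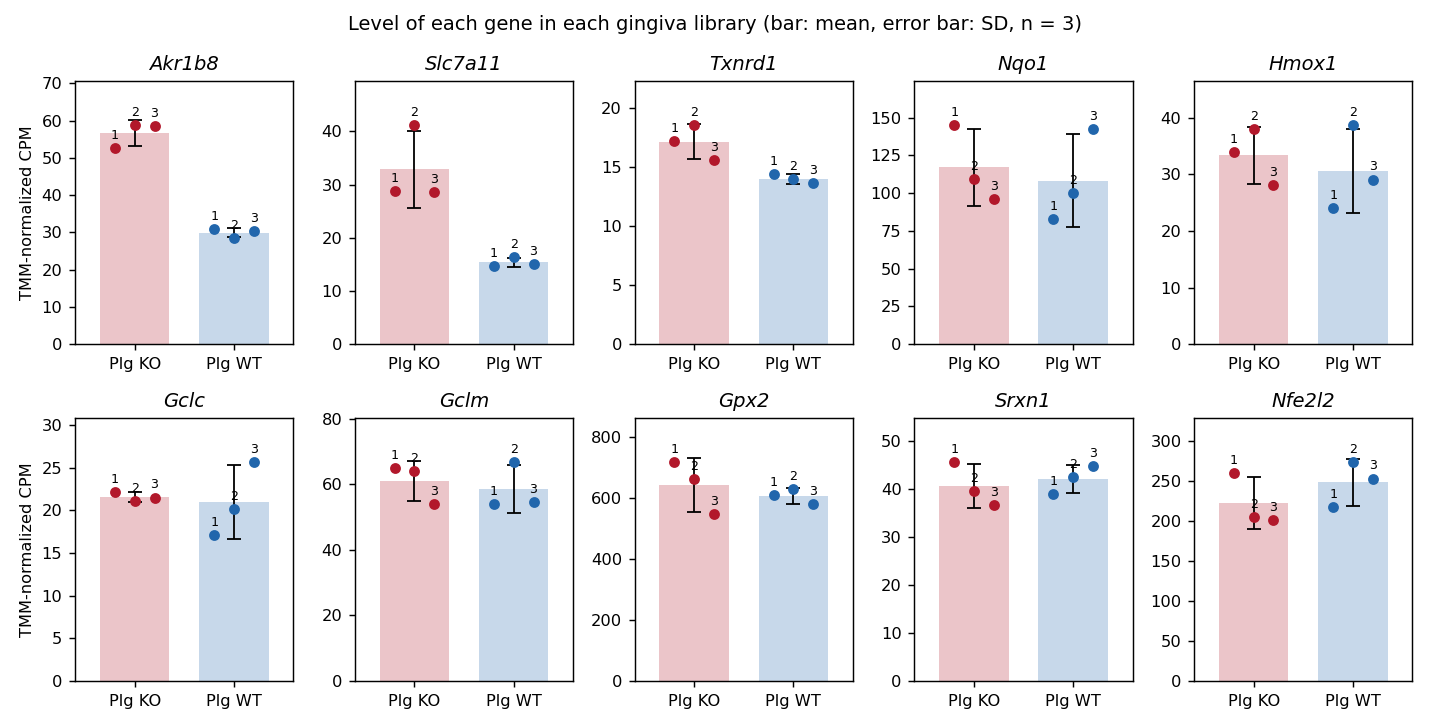
TMM-normalized CPM of each gene in each library (points, numbered by replicate), with the group mean (bar) and SD (error bar, n = 3), Plg KO left of Plg WT. Akr1b8, Slc7a11 and Txnrd1 have no overlap between groups, and the other 7 genes overlap.

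Of the 10 genes, edgeR's quasi-likelihood test, adjusted over all tested genes, called Akr1b8 higher at an adjusted p under 0.05 and called 0 lower. Slc7a11 did not pass that test (adjusted p = 0.0665). Over all genes, 0.237% were called, 0.191% higher and 0.0451% lower. Before adjustment, 3 of the 10 passed p under 0.05, all higher, where 9.25% of all genes passed. DESeq2 called Akr1b8 and Slc7a11 higher, where it called 1.61% of genes higher and 0.75% lower. limma-voom called Akr1b8, where it called 0.18% higher and 0.0507% lower. Because Akr1b8 was chosen with its difference known, these calls describe it and support nothing further. The edgeR call was lost without Plg KO 2, Plg KO 3, Plg WT 2 or Plg WT 3, with log2 differences of 0.90, 0.90, 0.89 and 0.93 in those fits.

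Txnrd1 (ENSMUSG00000020250, chromosome 10, 82833951 to 82897712) encodes the thioredoxin reductase of the cytosol. It had 17.3, 18.6 and 15.7 CPM in Plg KO 1, 2 and 3, against 14.4, 14.0 and 13.6 CPM in Plg WT 1, 2 and 3. The groups did not overlap, but the gap between the lowest Plg KO and the highest Plg WT library was small. The log2 difference was 0.29 ± 0.11 (SE; unadjusted 95% interval 0.03 to 0.55), and 29.8% of all tested genes differed by more. Txnrd1 did not pass edgeR's test over all genes (adjusted p = 0.473). In all, 3 of the 10 genes had every Plg KO library above every Plg WT library and 0 had every one below, where 7.51% and 7.18% of all tested genes did. Since the genes were chosen with this comparison known, nothing is read from that count.

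The remaining 7 genes, most of them standard readouts of NRF2, had overlapping groups and log2 differences of -0.16 to 0.12. Nqo1 (ENSMUSG00000003849, chromosome 8, 107388225 to 107403206) encodes the quinone reductase that is a widely used NRF2 readout. It had 145.2, 109.5 and 96.4 CPM in Plg KO 1, 2 and 3, against 82.7, 99.8 and 142.2 CPM in Plg WT 1, 2 and 3. The spread within each group was larger than the difference between them, a log2 difference of 0.11 ± 0.23 (SE; 95% interval of the fit -0.42 to 0.64). Its 2 highest libraries, Plg KO 1 and Plg WT 3, were also the 2 with transcripts of the Y-linked gene Ddx3y (1838 and 1475 counts, at most 2 elsewhere). Whether Nqo1 differs by sex was not tested. Among genes of like level, within 2-fold, 91.7% had a smaller spread within groups than Nqo1, as SD of log2(CPM + 0.5).

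Hmox1 (ENSMUSG00000005413, chromosome 8, 75093621 to 75100589) encodes haem oxygenase 1, which degrades haem and is strongly inducible. It had 33.9, 38.0 and 28.1 CPM in Plg KO 1, 2 and 3, against 24.1, 38.7 and 29.1 CPM in Plg WT 1, 2 and 3. The highest and the lowest of the 6 values were both in Plg WT (log2 difference 0.12 ± 0.19, SE).

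The enzyme that carries out the first step of glutathione synthesis is a pair of proteins, the catalytic subunit Gclc and the modifier Gclm. Gclc (ENSMUSG00000032350, chromosome 9, 77754535 to 77794485) had 22.2, 21.1 and 21.5 CPM in Plg KO 1, 2 and 3, against 17.1, 20.1 and 25.7 CPM in Plg WT 1, 2 and 3, so the Plg KO values lay inside the Plg WT range. Gclm (ENSMUSG00000028124, chromosome 3, 122245557 to 122270732) had 64.8, 64.1 and 54.0 CPM in Plg KO 1, 2 and 3, against 54.0, 66.9 and 54.5 CPM in Plg WT 1, 2 and 3. Their log2 differences were 0.04 ± 0.16 and 0.06 ± 0.12 (SE), with 95% intervals of -0.32 to 0.41 and -0.22 to 0.35. The fitted interval of Slc7a11 was 0.71 to 1.48, and differences between genes were not tested.

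Gpx2 (ENSMUSG00000042808, chromosome 12, 76792333 to 76795554) encodes an epithelial glutathione peroxidase and was the most abundant of the 10 genes. It had 718.6, 661.8 and 545.7 CPM in Plg KO 1, 2 and 3, against 608.5, 630.1 and 580.0 CPM in Plg WT 1, 2 and 3, with the highest and the lowest value both in Plg KO. Srxn1 (ENSMUSG00000032802, chromosome 2, 152105516 to 152111376) encodes sulfiredoxin, which repairs over-oxidized peroxiredoxins. It had 45.7, 39.5 and 36.7 CPM in Plg KO 1, 2 and 3, against 38.9, 42.6 and 44.8 CPM in Plg WT 1, 2 and 3. Both sets of values overlapped, with log2 differences of 0.08 ± 0.12 for Gpx2 and -0.05 ± 0.11 for Srxn1 (SE).

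Nfe2l2 (ENSMUSG00000015839, chromosome 2, 75675513 to 75704641), the gene of NRF2 itself, had 259.3, 204.9 and 201.3 CPM in Plg KO 1, 2 and 3, against 217.0, 274.2 and 253.0 CPM in Plg WT 1, 2 and 3. The groups overlapped, with the lowest 2 values in Plg KO (log2 difference -0.16 ± 0.14, SE; 95% interval -0.48 to 0.16). NRF2 is controlled mainly through the stability of its protein, which these data do not measure. The median log2 difference of the 10 genes was 0.10, beside -0.00 for all tested genes. With 1 library left out, that median was 0.014 without Plg KO 1, 0.059 without Plg KO 2 and 0.21 without Plg KO 3. It was -0.0085 without Plg WT 1, 0.14 without Plg WT 2 and 0.15 without Plg WT 3.

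**Figure D2:**
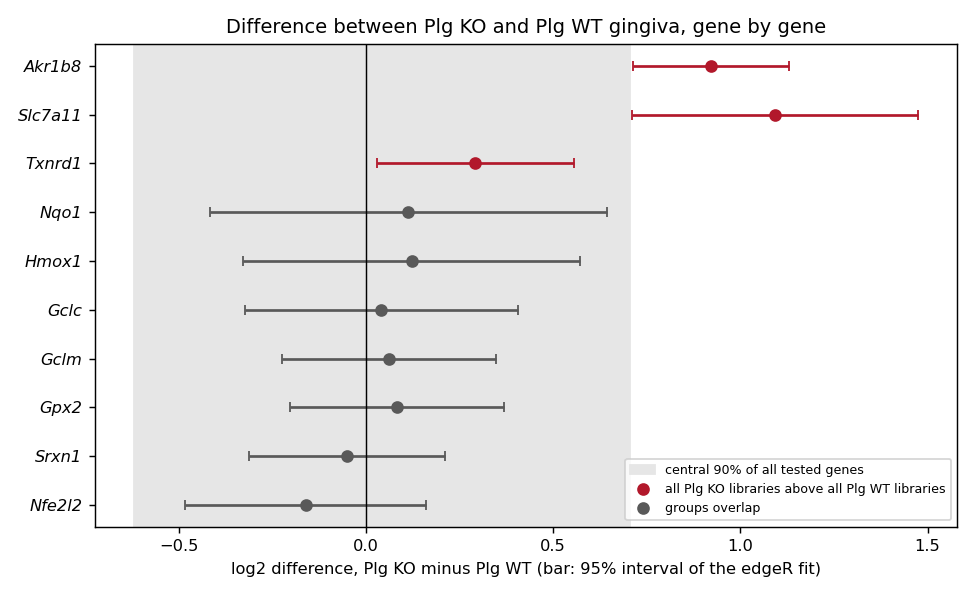
Log2 difference, Plg KO minus Plg WT, of each gene from the edgeR fit (point) with its 95% interval (bar); the grey band holds the central 90% of all 17757 tested genes (-0.62 to 0.71). Akr1b8 (0.92) and Slc7a11 (1.09) lie right of the band, and Txnrd1 and the other 7 genes lie inside it.

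Within groups, the 7 overlapping genes tended to be ordered alike. In Plg KO, 6 of the 7 were highest in Plg KO 1 and 6 were lowest in Plg KO 3. In Plg WT, 6 were lowest in Plg WT 1. The share of all tested genes with these orders was not computed, so nothing particular to the 7 genes is read from them. The libraries also differed in markers of other tissues. The summed level of 7 skeletal muscle genes was 2340 CPM in Plg KO 1, 9058 CPM in Plg KO 2 and 10818 CPM in Plg KO 3, against 10300 CPM in Plg WT 1 and 5457 and 6618 CPM in Plg WT 2 and 3. The summed level of 7 basal epithelium genes was 18780 CPM in Plg KO 1, 18010 CPM in Plg KO 2 and 16061 CPM in Plg KO 3, against 17832 CPM in Plg WT 1, the lowest of its group, and 19507 and 18463 CPM in Plg WT 2 and 3. The sum of 10 upper epithelium genes had another order: 26726 CPM in Plg KO 1, 33666 CPM in Plg KO 2 and 26890 CPM in Plg KO 3, against 24320, 31479 and 32400 CPM in Plg WT 1, 2 and 3. None of the genes of both epithelial lists was at 0 in all libraries. Most of the basal sum was Krt14, at 15964.5, 15606.4 and 13590.5 CPM in Plg KO 1, 2 and 3. In Plg WT 1, 2 and 3 Krt14 had 14910.9, 16723.9 and 15437.7 CPM. The order of that sum is thus mainly that of 1 gene. Of the others, Krt5 was highest of its group in Plg WT 1 (1493 CPM) and Col17a1 lowest there (149.4 CPM). Salivary gland genes summed to 1215 to 1705 CPM in Plg KO, against 1631 CPM in Plg WT 1 and 473.6 and 316.9 CPM in Plg WT 2 and 3; of that list only Prol1 was at 0. The part of these tissues in the orders was not tested. Akr1b8 did not follow the order of the 7 genes: it was lowest of its group in Plg KO 1 and highest of its group in Plg WT 1. Txnrd1 was also highest of its group in Plg WT 1. Slc7a11 and Txnrd1 were highest in Plg KO 2 and lowest in Plg KO 3, and Slc7a11 was lowest of its group in Plg WT 1.

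Levels between genes were compared as CPM per kilobase of annotated exon. Gpx2 was highest, at 169.4 to 223.0 CPM per kilobase over the 6 libraries. Nqo1 (53.2 to 93.5) and Nfe2l2 (53.0 to 72.2) followed and overlapped each other. Akr1b8 had 35.1 to 39.3 CPM per kilobase in Plg KO, above the 16.1 to 21.7 of Hmox1 there. In Plg WT its 19.0 to 20.6 lay inside the 13.8 to 22.1 of Hmox1. Hmox1 overlapped with Srxn1 (13.0 to 16.2), and below them came Gclm (8.59 to 10.6) and Gclc (4.54 to 6.82), which overlapped with no neighbour. Slc7a11 had 2.06 to 2.96 CPM per kilobase in Plg KO, across the 2.21 to 2.63 of Txnrd1. In Plg WT Slc7a11 had 1.05 to 1.18, below the 1.93 to 2.04 of Txnrd1. The exon length used is that of all annotated exons merged, 13.92 kb for Slc7a11, and lowers the value of genes with long alternative ends.

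Akr1b8 lies beside its close relatives on chromosome 6, between Akr1b3 (34302434 to 34317478) and Akr1b10 (34384218 to 34396950), with Akr1b7 (34412334 to 34423142) beyond. Of the 1461 stretches of 37 bases, the read length, in its transcripts, 94 (6.43%) also occur in transcripts of other genes, 65 of them in Akr1b10 and 23 in Akr1b7. A read from those stretches cannot be assigned by its own sequence. The libraries were read as pairs, so the other read of a pair may place it, which was not examined. The sources used here do not state how the authors handled such reads. Akr1b10 had 19.5, 23.8 and 27.8 CPM in Plg KO 1, 2 and 3, against 25.4, 18.9 and 19.7 CPM in Plg WT 1, 2 and 3. These groups overlapped (log2 difference 0.15 ± 0.17, SE; adjusted p = 0.860 in edgeR's test). Akr1b7, with 15 counts over Plg KO and 5 over Plg WT, was too low to test. Akr1b3, the aldose reductase gene, had 44.7, 57.0 and 54.8 CPM in Plg KO 1, 2 and 3, against 39.9, 35.2 and 35.6 CPM in Plg WT 1, 2 and 3. Its groups did not overlap (log2 difference 0.50 ± 0.12, SE), but it did not pass edgeR's test (adjusted p = 0.204), and DESeq2 gave an adjusted p of 0.0484 (0.0484 to 0.660 over all alternatives). Akr1b3 shares 14.6% of its stretches with other genes, mostly unnamed gene models such as Gm38056.

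Among the other 9 genes, the share of 37-base stretches found elsewhere was 8.41% for Gpx2, nearly all of it with its pseudogene Gpx2-ps1, 5.73% for Gclm, 2.99% for Slc7a11 and 0.351% for Srxn1. It was 0 for Nfe2l2, Gclc, Txnrd1, Nqo1 and Hmox1. Slc7a11 shared 172 stretches with Tuba1a, and Gclm shared 219 with Ppia. The effect of these on the counts was not examined. The libraries do not mark strand, so reads of overlapping genes mix. Gpx2 lies within the span of Fntb (6513 counts in all) with 0 exon bases in common, and Gclm shares 296 exon bases with the gene model Gm17494 (125 counts).

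Of 122 tested genes in 11 lists related to NRF2 and oxidants, edgeR called 0 at an adjusted p under 0.05, with 9 higher and 9 lower before adjustment (unadjusted p under 0.05; background 4.97% and 4.27%). DESeq2 called 3 higher and 2 lower and limma-voom 0. The median log2 difference of the 122 was 0.01, and 15 (12.3%) had every Plg KO library above every Plg WT library, beside 7.51% of all tested genes. Another 10 (8.20%) had every one below, a share near the 7.18% of all tested genes. Unless another tool is named, adjusted p-values for these lists are from edgeR's test over all genes, and counts before adjustment are at p under 0.05.

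The regulators of NRF2 showed 0 calls among 13 (before adjustment 1 lower; DESeq2 and limma-voom 0) and a median of -0.01. Keap1 had a log2 difference of -0.02 ± 0.08 (SE). Bach1, a repressor that competes for the same elements, had a log2 difference of -0.01 ± 0.16. Mafk, a small MAF partner, had 18.9 ± 2.60 CPM in Plg KO and 24.7 ± 0.708 CPM in Plg WT (adjusted p = 0.371), Nfe2l3, a relative of NRF2, a log2 difference of 0.45 ± 0.21 (adjusted p = 0.589) and the kinase Gsk3b -0.20 ± 0.14 (adjusted p = 0.746).

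Among 14 further glutathione enzymes, 13 had a positive log2 difference (8733 of all 17757 genes did) and the median was 0.25, though edgeR called 0 (before adjustment 4 higher; DESeq2 1, limma-voom 0). In 6 of them (42.9%) every Plg KO library lay above every Plg WT library, beside 7.51% of all tested genes. Nothing particular to the list is read from these counts. Gsr, glutathione reductase, had 23.3, 35.5 and 30.4 CPM in Plg KO 1, 2 and 3, against 21.6, 14.4 and 13.0 CPM in Plg WT 1, 2 and 3. It had the lowest p of the list (log2 difference 0.86 ± 0.23, SE; adjusted p = 0.261) and was the one DESeq2 called (adjusted p = 0.0277; 0.0277 to 0.758 over all alternatives). Its 2 lowest libraries, Plg WT 2 and 3, were also the lowest in the salivary gland sum, and the part of gland tissue was not tested. The transferase Gstm1 had 298.7 ± 19.5 CPM in Plg KO and 245.6 ± 12.8 CPM in Plg WT (SD, n = 3 each; adjusted p = 0.376), and the microsomal Mgst1 a log2 difference of 0.22 ± 0.08 (adjusted p = 0.441). The Gstm and Gsta genes are close paralogs, so the split of reads within each family is uncertain.

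The thioredoxin list (5 genes) and the NADPH supply list (6 genes) had medians of -0.02 and -0.00, with 0 calls by edgeR, DESeq2 or limma-voom and 0 genes at an unadjusted p under 0.05. Log2 differences of the NADPH genes ran from -0.07 to 0.07, among them Taldo1 and Tkt of the pentose phosphate route (-0.07 each) and G6pdx, its entry enzyme (0.07). Thioredoxin itself, Txn1, had 0.27 ± 0.14 (SE; adjusted p = 0.630). Txnip, which binds and inhibits thioredoxin, had -0.77 ± 0.37 (adjusted p = 0.602) with 1 high library, Plg WT 3 (89.3 CPM), and -0.17 without it, and the peroxiredoxin Prdx6 had -0.10 ± 0.13.

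The iron and haem list had a median of 0.05 over 11 genes, and edgeR, DESeq2 and limma-voom called 0 (1 lower at an unadjusted p under 0.05). Cd163, the macrophage receptor for haemoglobin, had 1.34 ± 0.310 CPM in Plg KO and 2.37 ± 0.426 CPM in Plg WT (SD, n = 3 each; adjusted p = 0.382). Fech, the last enzyme of haem synthesis, had a log2 difference of -0.24 ± 0.10 and Blvrb, a biliverdin reductase, 0.20 ± 0.10. Of 12 detoxifying enzymes and export pumps, edgeR called 0 (before adjustment 2 higher and 2 lower; DESeq2 1 lower, limma-voom 0), with a median of -0.04. Ephx1, microsomal epoxide hydrolase and a known NRF2 target, had 62.0, 66.0 and 66.6 CPM in Plg KO 1, 2 and 3, against 94.8, 90.8 and 86.3 CPM in Plg WT 1, 2 and 3. Every Plg KO library was below every Plg WT library (log2 difference -0.48 ± 0.08, SE; adjusted p = 0.0892 in edgeR and 0.00118 in DESeq2, 0.00118 to 0.571 over all alternatives). The carbonyl reductase Cbr3 had -0.45 ± 0.15 (adjusted p = 0.376). Osgin1, an oxidative stress response gene, had 0.43 ± 0.15 (adjusted p = 0.434).

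**Figure D3:**
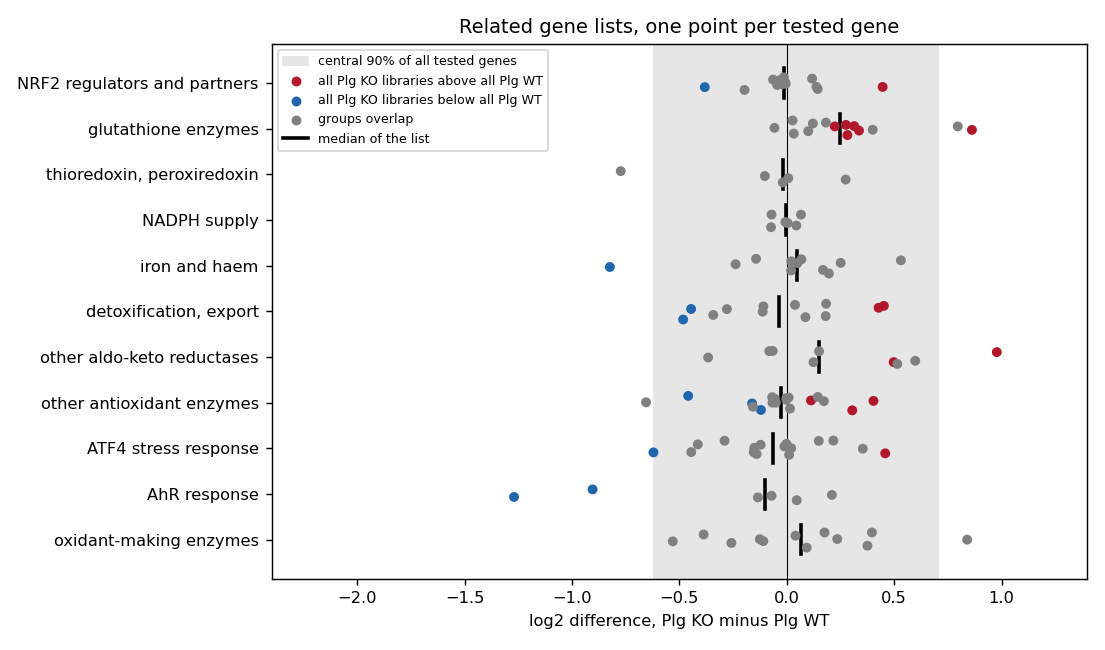
Log2 difference, Plg KO minus Plg WT, of each tested gene (point) in 11 related lists, with each list's median (black bar) and the central 90% of all tested genes (grey band). The glutathione list has the highest median (0.25), and the AhR list the lowest (-0.10).

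The other 9 tested aldo-keto reductases had a median of 0.15 (edgeR 0 called, before adjustment 1 higher; DESeq2 1 higher, limma-voom 0). Besides Akr1b3, Akr1c13 had 4.20 ± 0.565 CPM in Plg KO and 2.12 ± 1.24 CPM in Plg WT (SD, n = 3 each; adjusted p = 0.571), and Akr1e1 a log2 difference of 0.12 ± 0.11. Without Plg WT 3 the log2 difference of Akr1c13 was 0.59, against 0.98 with all libraries. Antioxidant enzymes outside the usual NRF2 set had a median of -0.03 over 18 genes (0 called by edgeR, DESeq2 and limma-voom, before adjustment 1 higher and 1 lower). Prdx4, the peroxiredoxin of the endoplasmic reticulum, had 0.40 ± 0.12 (adjusted p = 0.324), the extracellular superoxide dismutase Sod3 -0.46 ± 0.16 (adjusted p = 0.406), and Gpx8 0.30 ± 0.14 (adjusted p = 0.588).

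ATF4 target genes share Slc7a11 with NRF2. Of 16 in the list, edgeR called 0 (before adjustment 1 higher and 2 lower; DESeq2 1 higher, limma-voom 0), with a median of -0.07. Asns, asparagine synthetase, had 126.4 ± 5.49 CPM in Plg KO and 92.0 ± 9.57 CPM in Plg WT (SD, n = 3 each), a log2 difference of 0.46 ± 0.10 (adjusted p = 0.180). Leaving out Plg WT 1 gave 0.0455, and all alternatives 0.0237 to 0.615. Ddit4, a stress-induced inhibitor of mTOR signalling, had -0.62 ± 0.21 (adjusted p = 0.376) and the amino acid transporter Slc7a5 -0.41 ± 0.16 (adjusted p = 0.465). Slc3a2, the partner chain of the Slc7a11 transporter, had 233.6 ± 9.99 CPM in Plg KO and 231.9 ± 29.7 CPM in Plg WT. Of the 16 log2 differences, 6 were positive and 10 negative.

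The aryl hydrocarbon receptor (AhR) shares Nqo1 with NRF2. Of 6 tested genes, edgeR and limma-voom called 0 (before adjustment 2 lower; DESeq2 1 lower). Cyp1a1, its classic target, had 0.938 ± 0.360 CPM in Plg KO and 2.28 ± 0.282 CPM in Plg WT (SD, n = 3 each; adjusted p = 0.234 in edgeR and 0.0361 in DESeq2, 0.0361 to 0.664 over all alternatives). Ahrr, which represses this pathway, showed -0.90 ± 0.34 on the log2 scale (adjusted p = 0.466) and Tiparp -0.13 ± 0.14. The level of Ahrr was low, with means of 0.515 CPM in Plg KO and 0.971 CPM in Plg WT. Of 12 tested oxidant-making enzymes, edgeR, DESeq2 and limma-voom called 0, with 0 at an unadjusted p under 0.05 and a median of 0.07. Duoxa2, the maturation factor of an epithelial oxidase, had 0.84 ± 0.41 (adjusted p = 0.607). Its level was low, with means of 1.14 CPM in Plg KO and 0.642 CPM in Plg WT. Ncf1, a subunit of the phagocyte oxidase, had 0.40 ± 0.34.

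The profile of Akr1b8 over the 6 libraries was compared with that of 13135 named genes averaging 1 CPM or more. Likeness was measured as the root mean square difference of log2(CPM + 0.5) after centring each gene on its own mean. The nearest were Vmp1, an autophagy protein (0.0621), Cenpa, the centromere histone (0.0830), Igf2r, a lysosomal sorting receptor (0.0872), Pglyrp4, which binds peptidoglycan (0.0946), and Lamb3, a laminin chain of the epithelial basement membrane (0.0995). Their log2 differences were 0.80 to 0.87. Whether any of them lies near the Plg gene on its chromosome was not examined. All 5 share with Akr1b8 a step between the genotypes and little spread within them, and the measure picks that shape. Within Plg KO their order can differ: Cenpa had 54.3, 52.4 and 52.5 CPM in Plg KO 1, 2 and 3, highest where Akr1b8 was lowest. Slc7a11 was the 59th nearest (0.185), Akr1b3 the 137th (0.223) and Txnrd1 the 641st (0.329), while Nqo1 was the 7140th (0.506).

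**Figure D4:**
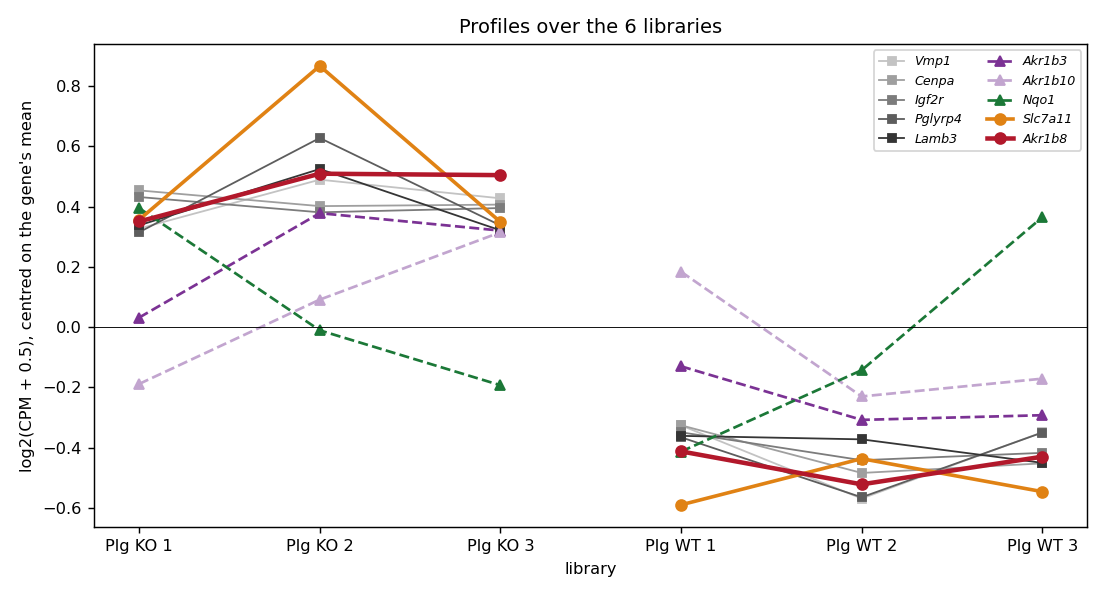
Log2(CPM + 0.5) of each gene centred on its own mean over the 6 libraries, Plg KO left and Plg WT right, for Akr1b8, Slc7a11, the 5 genes nearest to Akr1b8 (grey), Akr1b3, Akr1b10 and Nqo1. The grey genes were picked as nearest to Akr1b8 and so share its step; Nqo1 peaks in Plg KO 1 and Plg WT 3.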

How the data were processed

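RNA of gingiva from 6 mouse libraries was measured. Nextera XT libraries, a kit that does not mark strand, were read as 37 bp pairs, per the labels' protocols. The submitters' processing notes name the builds GRCm38.p3 and mm10 and, as tools, DESeq2, limma, edgeR and STAR 2.5.2a, with no roles. The authors deposited raw counts per gene and CPM after TMM scaling, as the name of the deposited table says. The sources used here do not name the counting tool. Among the counts, 22 entries name no gene, took at most 3.55e-05% of a library and were left out. Dividing the deposited CPM by 1 constant per column gave whole reads for 100% of values (within 0.01 read), equal to the counts. A fit on those reads, added after seeing the data, called 34 genes higher and 8 lower, as did the deposited counts.

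Total counts were 26183389 to 36429150 per library. The limit that 0 counts allow (3 counts) was 0.081 to 0.117 CPM, for counting error only. No pair of libraries agreed within sampling noise (chi-square per degree of freedom at least 21.4).

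edgeR 4.0.16 in R 4.3.3 tested Plg KO against Plg WT (quasi-likelihood F test, TMM, filterByExpr, Benjamini-Hochberg over 17757 genes, genotype only). The SE is the log2 difference over the square root of F. limma 3.58.1 and DESeq2 1.42.0 were alternatives. The procedure was tested on simulated data. Members and lists were chosen with earlier results of these data known. Named were the 10 genes, up to 3 genes of lowest p per list, 5 genes nearest to Akr1b8 and its paralogs; 1 gene that the rule names is not reported here. Keap1, Bach1, Slc3a2 and the marker sums and marker genes beside results were chosen after their values were seen. Akr1b1 and Akr1b3 are 1 gene. Positions, exon lengths and shared stretches are from GENCODE M21 (GRCm38), promoters from RefSeq.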

Additional observations from a re-analysis of the deposited data

How the results depend on the processing

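Counts of called genes depended on the fit. The count of genes higher in Plg KO was 34 and of genes lower 8. It was 122 and 40 with no filter, 275 and 128 with DESeq2, 54 higher with a term for sex, and 1 to 184 higher and 1 to 35 lower when 1 library was left out. With the replicate number as a block it was 2 and 0. The numbers did not pair the libraries: same-numbered libraries deviated from their group means with correlations of -0.32, -0.04 and -0.29, and 0 of 3 Plg KO libraries correlated best with their own number. Of the 10 genes, 2 were called higher with no filter or DESeq2 (Akr1b8 and Slc7a11), 0 with the replicate block and 0 to 1 when 1 library was left out. Of the related lists, DESeq2 called 3 genes higher and 2 lower, and 0 to 1 were called higher when 1 library was left out. G6pdx turned to -0.075 without Plg WT 1 and reached 0.15 without Plg WT 3, the ends of its range. The cause of these shifts was not tested. The log2 difference stayed positive in 16 of 16 alternatives for Akr1b8 (0.87 to 0.97), Slc7a11 (0.90 to 1.18) and Txnrd1 (0.23 to 0.35). The groups of these genes do not overlap, so the sign could hardly change, and nothing is read from that count. The fit on whole reads recovered from the CPM repeats the main values. With 3 libraries a group, the intervals of the 7 overlapping genes include 0. With 1 library left out, the difference took both signs in 5 of them: Nqo1 (-0.08 to 0.36), Gclc (-0.09 to 0.21), Hmox1 (-0.02 to 0.33), Gpx2 (-0.01 to 0.19) and Srxn1 (-0.15 to 0.02). Gclm ran from 0.01 to 0.17 and Nfe2l2 from -0.29 to -0.08.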
